A study of Mus musculus with 12 samples.

Results

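Granzymes and their partners are the killing machinery of cytotoxic lymphocytes, and their RNA was followed here in thymic leukemias of the mouse. The genes are the granzymes Gzma and Gzmb, the pore former Prf1, the granzyme inhibitor Serpinb9, the receptor chain Klrd1 and the chemokine Ccl5. They were taken as a named list, with every probe set annotated to them. Each of the 6 genes had 1 probe set, so 6 of 12422 tested probe sets and 6 of 8251 genes are described.

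The tested arrays held 8 samples of leukemic cells from TEL-JAK2 mice of the strain C57Bl/6, taken from the thymus when the animals were terminally ill. TEL-JAK2 is a fusion of the transcription factor TEL (Etv6) with the tyrosine kinase Jak2, which signals without a cytokine. The other 4 arrays held thymocytes of wild type C57Bl/6 mice aged 2 months. Every sample was a cell suspension of the whole thymus, unsorted as far as the labels say. Neither the promoter of the transgene nor the age of the leukemic mice is stated by the labels. Nor do they say whether samples of a group are different animals, and each p-value is set against a spread that may be technical.

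Cytotoxic T cells and natural killer (NK) cells store granzymes, which are serine proteases, in granules together with perforin. On contact with a target the granules empty, perforin opens the membrane, and the granzymes enter and cut proteins that keep the target alive. Normal thymocytes are immature and make little of this machinery, which T cells usually switch on after leaving the thymus and meeting antigen or cytokines such as interleukin 2.

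Values are log2 intensities of a probe set, comparable between arrays but not between genes. Array medians lay between 66.48 and 70.18 intensity units. The control level is the 95th percentile of 19 probe sets for non-mouse transcripts on the same array, and lay between 5.20 and 5.59 on the log2 scale. A gene was called changed at an adjusted p under 0.05 in limma, a linear model fitted over all 12422 probe sets with Benjamini-Hochberg adjustment. In that fit 14.5% of probe sets were called, 4.65% higher and 9.88% lower in leukemia. Among the 6 genes 2 were called higher, 0 lower, and 4 were not called. All leukemias lay above all thymocyte arrays for 1 of the 6 genes, where this held for 4.21% of all genes, and all lay below for 0, where it held for 8.11%. The T-cell marker Cd3e, a chain of the T-cell receptor complex, was bright in both groups. It was at 10.22 to 11.34 in leukemias and 11.09 to 11.26 in thymocyte arrays, and was picked with its values in view. Of 17 listed thymocyte and T-cell genes 1 was called higher and 6 lower. Their summed intensity lay below every thymocyte array in all 8 leukemias. In suspensions of this kind more cells of a type and more RNA per cell cannot be told apart. Precision is bounded by the small number of arrays.

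Gzma encodes granzyme A, a protease that cuts after basic residues. It was high in every leukemia. The log2 values were 10.41, 11.79, 11.10, 11.54, 11.40, 11.03, 11.42 and 12.36 in leukemias 1 to 8, against 7.61, 7.61, 7.32 and 8.32 in thymocyte arrays 1 to 4. The groups did not overlap, and the lowest leukemia stood above the highest thymocyte array. Such a separation with leukemia above was seen for 3.84% of probe sets. Gzma averaged 11.38 ± 0.57 in leukemias (SD, n = 8) and 7.71 ± 0.43 in thymocytes (SD, n = 4). It rose 12.7-fold, a log2 change of 3.67 (SE 0.29, limma adjusted p = 2.7e-06). An exact two-sided permutation test over the 495 assignments of arrays gave p = 0.00202, the smallest it allows. The name of the probe set, with _s_ in it, marks possible hybridization to related transcripts, and it is the only one of the 6 so marked. Among the 4 leukemias and 3 thymocyte arrays whose title numbers have 4 digits the log2 difference of Gzma was 3.95, and that of Serpinb9 was 1.48. Among the other 4 leukemias and 1 thymocyte array the differences were 2.98 and 1.59, and neither passed there (limma adjusted p = 0.176 and 0.498).

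Gzmb encodes granzyme B, which cuts after aspartate and activates caspases. It split the leukemias. The log2 values were 11.09, 6.38, 11.42, 6.23, 11.02, 5.88, 12.22 and 7.96 in leukemias 1 to 8, against 5.74, 5.83, 6.13 and 6.07 in thymocyte arrays 1 to 4. Leukemias 1, 3, 5 and 7 were bright and leukemias 2, 4 and 6 lay close to the thymocyte arrays, with leukemia 8 between. Leukemia 6 lay inside the thymocyte range and the other 7 above it. Within leukemia the range was 6.34 on the log2 scale, or 80.8-fold, and its widest gap took 48.3% of that range, with 4 arrays on each side.

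Gzmb averaged 9.03 ± 2.67 in leukemias (SD, n = 8) and 5.94 ± 0.19 in thymocytes (SD, n = 4). The log2 difference of 3.09 (SE 1.18, 95% interval 0.53 to 5.64) did not pass (limma adjusted p = 0.109). The exact permutation p was 0.0545. The size of the difference is close to that of Gzma, and its error is that of a group with widely separated arrays. With arrays weighted by their own spread in the fit, the difference was 3.29 and passed (limma adjusted p = 0.0107).

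**Figure D1:**
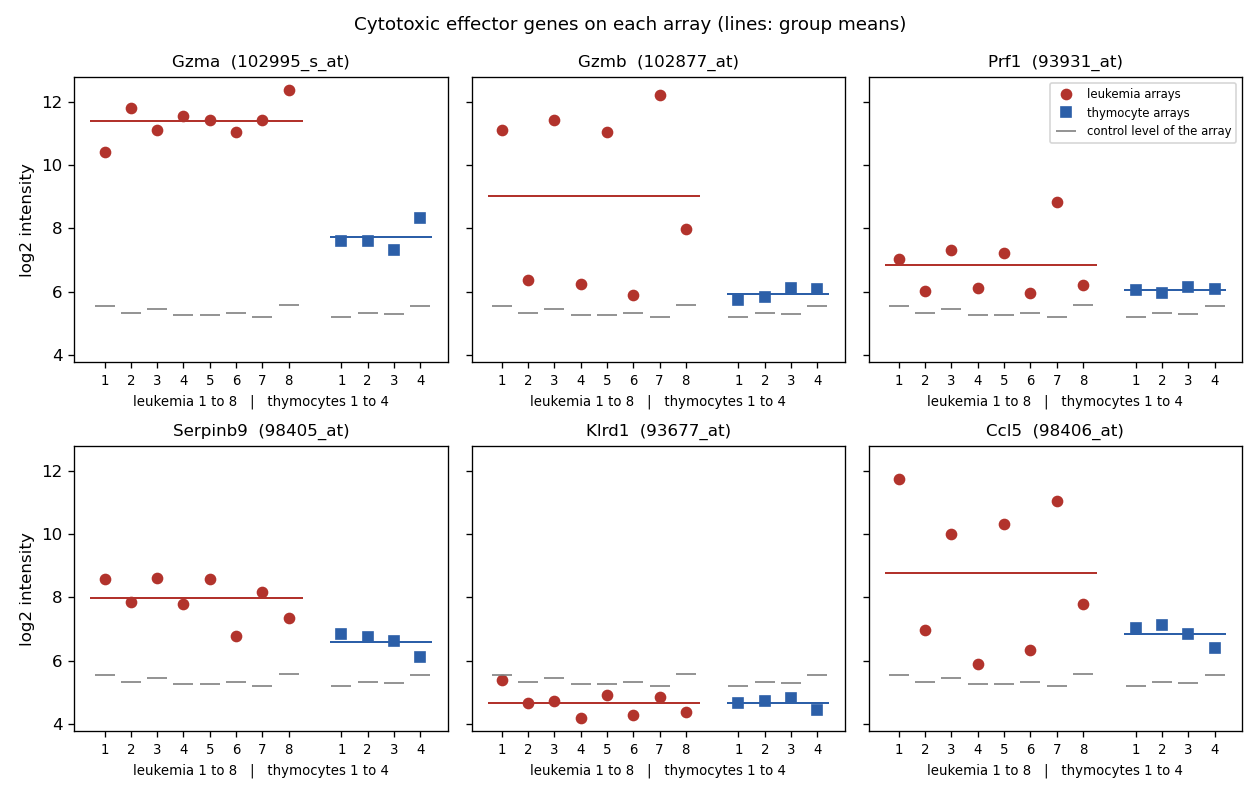
Log2 intensity (vertical axis) of the 6 cytotoxic effector genes on each array, leukemias 1 to 8 as circles and thymocyte arrays 1 to 4 as squares. Horizontal lines are group means and grey dashes the control level of each array. All 8 leukemias were bright for Gzma, Gzmb and Ccl5 were brightest in leukemias 1, 3, 5 and 7, and Klrd1 lay under the control level on all 12 arrays.

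The sequences just upstream of Gzma and Gzmb are shown because these granzymes differed in how many leukemias were bright for them. Each is the 250 bases before the start site in RefSeq, build GRCm38.p6, minus strand, written 5′ to 3′. Capitals mark matches to any of 7 short motifs searched on both strands. The Gzma window is chr13:113100982-113101231 and the Gzmb window chr14:56262335-56262584.
Gzma: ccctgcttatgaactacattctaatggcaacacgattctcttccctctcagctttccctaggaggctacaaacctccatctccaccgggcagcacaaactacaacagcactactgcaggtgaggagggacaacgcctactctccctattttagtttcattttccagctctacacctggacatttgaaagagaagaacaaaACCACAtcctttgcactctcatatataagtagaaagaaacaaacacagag
Gzmb: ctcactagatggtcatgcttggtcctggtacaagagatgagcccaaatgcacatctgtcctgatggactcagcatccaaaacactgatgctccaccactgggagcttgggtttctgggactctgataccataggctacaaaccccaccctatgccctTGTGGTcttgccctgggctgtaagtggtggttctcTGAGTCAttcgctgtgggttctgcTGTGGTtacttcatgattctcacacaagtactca

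The capitals in Gzma are 1 match to the RUNX motif TGTGGT on the opposite strand, 50 to 45 bases upstream of the start. Those in Gzmb are RUNX matches at 93 to 88 and 34 to 29 bases upstream and a match to the AP-1 motif TGANTCA at 58 to 52. RUNX factors and AP-1 are regulators of T-cell genes. Of 32851 windows of this length in the table, 14% held the RUNX motif and 6.75% the AP-1 motif. The Prf1 window had 1 RUNX match and that of Serpinb9 had none of the 7 motifs. The other motifs were the TATA box TATAAA (12.4% of windows), the cyclic AMP response element TGACGTCA (1.55%), the STAT motif TTCNNNGAA (7.02%), the T-box motif AGGTGTGA (1.12%) and the NF-kappaB motif named by its factor (0.356%). None of these other motifs, in the form searched, matched in the windows of the 4 genes that had a window, which says nothing about the factors. Variant forms, such as TATA boxes spelled otherwise, were not searched. A match describes letters, not binding.

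Prf1 encodes perforin, the pore former through which granzymes enter a target. Its log2 values were 7.04, 6.01, 7.31, 6.12, 7.22, 5.95, 8.83 and 6.20 in leukemias 1 to 8, against 6.05, 5.97, 6.13 and 6.07 in thymocyte arrays 1 to 4. Leukemia 7 stood highest, leukemias 1, 3 and 5 followed, and the remaining leukemias lay within 0.1 of the thymocyte range. These 4 leukemias are also the ones with bright Gzmb. Prf1 averaged 6.84 ± 0.98 in leukemias (SD, n = 8) and 6.06 ± 0.07 in thymocytes (SD, n = 4). The log2 difference of 0.78 (SE 0.44, 95% interval -0.16 to 1.72) did not pass (limma adjusted p = 0.294). Without leukemia 7 the difference was 0.495 and without leukemia 6 it was 0.91.

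Serpinb9 encodes a cytosolic serpin that binds granzyme B and protects the cells that make it. It was higher in leukemia. The log2 values were 8.58, 7.86, 8.61, 7.79, 8.59, 6.77, 8.16 and 7.33 in leukemias 1 to 8, against 6.85, 6.73, 6.61 and 6.12 in thymocyte arrays 1 to 4. All leukemias but leukemia 6 lay above every thymocyte array, among them leukemias 2 and 4, in which Gzmb was close to the thymocyte level. Serpinb9 averaged 7.96 ± 0.66 in leukemias (SD, n = 8) and 6.58 ± 0.32 in thymocytes (SD, n = 4). It rose 2.60-fold, a log2 change of 1.38 (SE 0.31, limma adjusted p = 0.00829, exact permutation p = 0.00606).

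Klrd1 encodes CD94, a lectin-like chain that forms receptors for MHC class I on NK cells and some T cells. It lay under the control level on all 8 leukemia and all 4 thymocyte arrays. The log2 values were 4.19 at the lowest, 4.69 at the median and 5.40 at the highest in leukemias, the last in leukemia 1, against 4.65, 4.73, 4.82 and 4.45 in thymocyte arrays 1 to 4. The leukemias reached both above and below the thymocyte arrays. The log2 difference was 0.01 (SE 0.19, 95% interval -0.39 to 0.42, limma adjusted p = 0.982), and no fold is given because both groups are near background.

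Ccl5 encodes the chemokine RANTES, which effector T cells secrete to attract other leukocytes. It varied almost as widely as Gzmb. The log2 values were 11.74, 6.95, 9.99, 5.88, 10.32, 6.35, 11.02 and 7.80 in leukemias 1 to 8, against 7.03, 7.12, 6.84 and 6.39 in thymocyte arrays 1 to 4. Leukemias 1, 7, 5 and 3 were brightest, in that order, and leukemia 8 lay above the thymocyte arrays by a smaller margin. Leukemia 2 lay within the thymocyte range and leukemias 4 and 6 below it, so the order of leukemias ran on both sides of normal. Ccl5 averaged 8.76 ± 2.28 in leukemias (SD, n = 8) and 6.85 ± 0.32 in thymocytes (SD, n = 4). The log2 difference of 1.91 (SE 1.01, 95% interval -0.27 to 4.09) did not pass (limma adjusted p = 0.263).

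**Figure D2:**
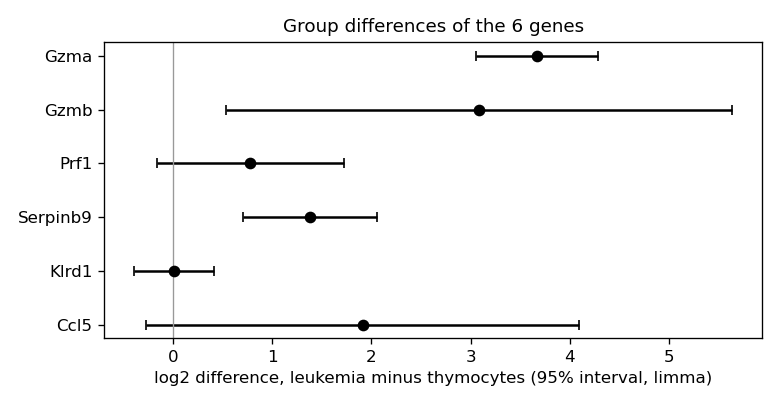
Log2 difference, leukemia minus thymocytes (horizontal axis), of the 6 genes with 95% intervals from limma, for 8 leukemia and 4 thymocyte arrays. Gzma at 3.67 and Serpinb9 at 1.38 were called, while the intervals of Gzmb and Ccl5 span several log2 units.

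Among 8251 genes, each represented by its brightest probe set, the leukemias differed most from each other in Gzmb. Probe sets annotated to several genes or to no gene were not ranked. Over the 8 leukemia arrays Gzmb had the largest SD of all 8251 genes, 2.67, and Ccl5 the third largest, 2.28. The gene between them was the T-cell receptor segment Trbv13-2 at 2.67, just under Gzmb, and Rag1, of the recombinase that assembles receptor genes, followed at 2.06. Prf1 ranked 63, Serpinb9 205, Gzma 298 and Klrd1 741. The median SD over all genes was 0.172 in leukemias and 0.113 in thymocytes. Gzma, with the largest mean difference of the 6, thus varied far less between leukemias than Gzmb.

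**Figure D3:**
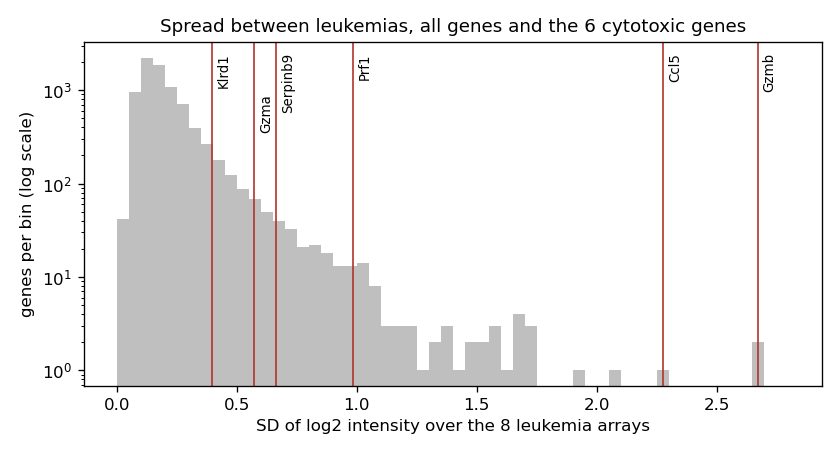
Number of genes (vertical axis, log scale) by the SD of their log2 intensity over the 8 leukemia arrays (horizontal axis), with red lines at the 6 cytotoxic genes. Gzmb at 2.67 and Ccl5 at 2.28 lie at the far end, and the other 4 lie between 0.40 and 0.98.

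The 6 genes did not share 1 order of leukemias. For 15 pairs of genes, a correlation over the 8 leukemias was computed only where no gap between neighbouring values took more than 40% of a gene's range, since wider gaps were read as separate clusters. That left 6 pairs. The gap of Gzmb (48.3%) set 4 arrays against 4. That of Prf1 (52.8%) set leukemia 7 apart from the other 7, which in turn held a gap of 61.3% of their range, with 4 arrays below and 3 above. Serpinb9 and Ccl5 had Pearson r = 0.777 (exact permutation p = 0.0241, adjusted 0.0538 over the 6 pairs), Spearman rho = 0.667 (exact p = 0.0831, adjusted 0.166) and r = 0.835 without leukemias 6 and 8. That pair did not pass after adjustment.

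Klrd1 and Ccl5 had r = 0.896 (exact permutation p = 0.00146, adjusted 0.00878) and rho = 0.952 (exact p = 0.00114, adjusted 0.00685). All Klrd1 values were under the control level, its widest gap took 39.4% of its range, and without leukemias 1 and 4 the r of 0.838 no longer passed (exact permutation p = 0.0514, adjusted 0.154). The size of r moved little when these arrays were left out, and 6 arrays remained for the test. Serpinb9 and Klrd1 had r = 0.762 (exact permutation p = 0.0269, adjusted 0.0538), with rho = 0.762 (exact p = 0.0368, adjusted 0.11) and r = 0.727 without leukemias 6 and 8. Gzma had negative r with Serpinb9 (-0.389, exact permutation p = 0.338, adjusted 0.338), Klrd1 (-0.591, exact permutation p = 0.118, adjusted 0.178) and Ccl5 (-0.486, exact permutation p = 0.233, adjusted 0.279). Its rho values were -0.357, -0.452 and -0.405 in the same order (exact p = 0.389, 0.267 and 0.327, each 0.389 after adjustment). Without leukemias 1 and 8 the r of Gzma with these genes was 0.190, 0.116 and -0.189. The leukemia with the lowest Gzma, leukemia 1, had the highest Ccl5.

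Likeness to other genes was measured as the root mean square difference of 2 profiles over the 8 leukemias, each scaled from 0 at its lowest to 1 at its highest value. The other profile came from 370 bright and variable genes. For Gzmb the most alike were Hopx, a homeodomain protein found in effector T cells (0.081), the phosphofructokinase gene Pfkp (0.090) and Ccl5 itself (0.112), where the median over the 370 genes was 0.525. Log2 values of Hopx stood at 8.88, 7.57, 8.74, 7.51, 8.53, 7.55, 9.11 and 7.95 across leukemias 1 to 8, against 7.69, 7.88, 7.96 and 7.66 in thymocyte arrays. Its bright leukemias were those of Gzmb, over a much smaller range.

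For Ccl5 the most alike were the calcium-binding protein gene S100a4 (0.072), the scaffold gene Ahnak (0.076) and Samhd1, which breaks down deoxynucleotides (0.085), with Gzmb at rank 9 of 370. S100a4 rose in leukemia by 2.40 on the log2 scale (SE 0.62, limma adjusted p = 0.0175). Its log2 values were 10.63, 7.60, 9.14, 6.99, 9.22, 7.27, 10.43 and 8.40 in leukemias 1 to 8, against 6.31, 6.31, 6.25 and 6.36 in thymocyte arrays. For Prf1 they were Saa3 (0.071), the adhesion molecule Vcam1 (0.105) and the chemokine Ccl8 (0.120), each highest in leukemia 7. For Serpinb9 they were the NADPH oxidase subunit Ncf4 (0.117), Smpdl3a (0.130) and Ostf1 (0.138), of which Ncf4 rose (log2 change 1.78, SE 0.27, limma adjusted p = 0.00061). For Gzma they were Sgip1 (0.107), Rbmx (0.203) and the cathepsin gene Ctsl (0.217), and Gzmb stood at rank 344 of 370.

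**Figure D4:**
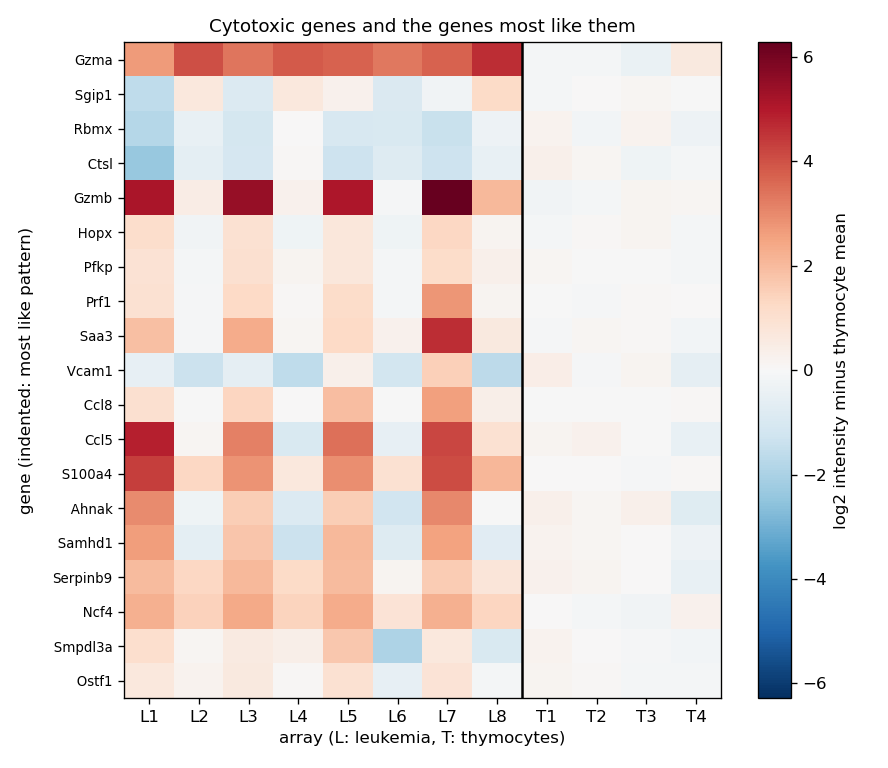
Log2 intensity minus the thymocyte mean (colour) of 5 cytotoxic genes and, indented under each, the genes with the most like pattern over leukemias. Columns are leukemias L1 to L8 and thymocyte arrays T1 to T4. Gzmb, Ccl5, S100a4 and Ahnak are darkest in L1, L3, L5 and L7, whereas Gzma is dark in all 8 leukemias.

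Genes of the cytotoxic programme and around it were read from 7 lists of 116 further genes on the array, written with earlier results of these data known. Of these 18 were higher (15.5%) and 12 lower (10.3%) in leukemia, where 5.15% and 11.4% of all genes were. Transcription factors and cytokine receptors gave 8 of the 18, granule genes 4, death ligands and cytokines 4, and chemokines 2. Other granzymes, serpins and NK-type receptors gave 0. The 18 include Ccl7 and Tnfsf10, with both group means under the control level. The median log2 difference was 0.14, against 0.0037 over all genes. The other granzymes were dim. Of 6 measured, 0 changed in either direction, with a median difference of 0.29. Gzmc, Gzmd, Gzmf, Gzmg and Gzmk had both group means under the control level. Gzmm, a granzyme of innate lymphocytes, was at 5.17 to 5.63 in leukemias and 5.19 to 5.24 in thymocytes.

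Of 13 genes of the granule and its release 4 rose, 1 fell and 8 did not pass, with a median difference of 0.34. Cst7 (cystatin F), an inhibitor of the cathepsins that activate granzymes, was at 7.94 to 9.55 in leukemias and 6.29 to 6.47 in thymocytes, a 4.74-fold increase (log2 change 2.24, SE 0.27). Srgn (serglycin), the proteoglycan that holds granzymes in the granule, rose 1.98-fold (log2 change 0.98, SE 0.20). The granule membrane protein gene Lamp1 (0.43, SE 0.06) and the release factor Stxbp2 (0.34, SE 0.06) rose by less. Lyst, which controls the size of lysosome-related granules, fell by 0.59 (SE 0.12). Ctsc, the cathepsin that activates granzymes, had a log2 difference of 0.60 (SE 0.34, limma adjusted p = 0.309), and was chosen after its value was seen.

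Of 11 further serpins and related inhibitors 0 rose and 0 fell, with a median difference of 0.07, and 7 of them lay near the control level. Of 15 further NK-type receptors and partners 1 was called lower and 0 higher, with a median of 0.11. Both group means were under the control level for 13 of them. Among these, Cd160 exceeded the array's own control level in leukemias 1, 5 and 7, at 6.45, 5.46 and 6.14, against 4.35 to 4.52 in thymocyte arrays. It was not called (limma adjusted p = 0.266) and was picked with its values in view. Cd244a and Fcer1g exceeded the array's control level in 1 leukemia each. The one called, Klra3, was under the control level on all 12 arrays, so its call is not read as a change. Of 23 further chemokines and receptors 2 were called higher and 2 lower, with a median of 0.18. The receptor Ccr9 fell by 2.86 (SE 0.46) and its ligand Ccl25, made by thymic epithelium, at least 2.03-fold. Ccl9 rose at least 1.49-fold. Ccl7, the other gene called higher, was under the control level on all 12 arrays and is not read as a change.

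Among 21 death ligands, receptors and granzyme targets 4 were called higher and 3 lower, with a median of 0.05. The lymphotoxin genes Ltb (log2 change 0.88, SE 0.11) and Lta (0.63, SE 0.10) rose, and so did the caspase gene Casp8 (0.39, SE 0.11). Tnfsf10 (TRAIL) was called higher with both group means under the control level. The death receptor gene Fas was at least 2.00-fold lower in leukemia, and Bid, which granzyme B cleaves, fell by 0.39 (SE 0.09). Hmgb2, part of the complex that granzyme A attacks, fell by 0.91 (SE 0.16). Fasl, which was not called (limma adjusted p = 0.349), was at 5.77, 4.98, 5.72, 4.92, 5.62, 5.14, 6.25 and 5.09 in leukemias 1 to 8, against 4.98 to 5.20 in thymocytes.

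Of 28 transcription factors and cytokine receptors of effector T cells 8 rose, 5 fell and 15 did not pass, with a median of 0.20. The interleukin 2 receptor chain Il2ra rose at least 3.14-fold, the transcription factor Bhlhe40 at least 2.90-fold and the interferon gamma receptor Ifngr1 2.46-fold. Il2rb, the chain shared with interleukin 15, rose 3.43-fold (log2 change 1.78, SE 0.47). The repressor Bcl6 fell by 3.22 (SE 0.21). Eomes, a T-box factor that drives cytotoxic genes, and the repressor Prdm1 did not exceed the mean control level on average in leukemias or thymocytes.

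Markers of other cells moved with part of this pattern. For macrophages 15 of 18 listed genes were measured, 0 were called, and their summed linear intensity was 1342 to 6587 in leukemias and 1401 to 1877 in thymocytes. The sum was 2096, 1988, 3944, 1342, 5564, 1621, 6587 and 1614 in leukemias 1 to 8. The 4 highest sums were those of leukemias 7, 5, 3 and 1, which are the leukemias bright for Gzmb, Prf1 and Ccl5. Leukemia 1, the brightest for Ccl5, was at 2096, above every thymocyte array and close to leukemia 2 at 1988. Single genes of the list went both ways between leukemias 1 and 2. Log2 values of Lyz2 were 6.97 and 7.72, the former the lowest of all leukemias, and those of C1qc were 8.60 and 8.14. The macrophage receptor genes Adgre1, Mrc1, Msr1, Marco and Axl had both group means under the control level. Single arrays exceeded their own control level for Marco, at 6.20 in leukemia 7, and for Adgre1, at 5.38 and 5.23 in leukemias 5 and 7. Mrc1, Msr1 and Axl were under it on all 12 arrays.

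For NK cells 12 of 21 listed genes were measured, 0 were called higher and 1 lower (Klra3). Both group means were under the control level for 10 of them, among them the defining receptor genes Ncr1, Klrk1 and Klrc1. The sum of the 12 was 351 to 850 in leukemias and 397 to 407 in thymocytes, with Tyrobp, which macrophages also express, as the brightest member. Without Tyrobp and Fcer1g the sums were 331, 262, 279, 237, 289, 238, 313 and 259 in leukemias 1 to 8, against 254 to 269 in thymocytes. Leukemias 1, 3, 5 and 7 were the 4 highest here too. All of these genes but Il18rap had both group means under the control level, so this order is not read as a level of NK cells. The part of macrophages and NK cells in the levels of Gzmb, Prf1 and Ccl5 was not tested.

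Of 12 genes of CD8 and activated T cells 3 rose, namely Il2rb, the integrin Itgae and the inhibitory receptor Pdcd1, and 0 fell. Their sum was 5683 to 9990 in leukemias and 7862 to 8268 in thymocytes, dominated by Cd8a and Cd8b1, and Cd44 and Eomes lay near the control level. Of 5 genes of gamma-delta T cells 0 were called, with sums of 575 to 928 in leukemias and 542 to 589 in thymocytes, and Il17a near the control level. Of 15 B-cell and dendritic genes 0 were called, with sums of 5586 to 13712 in leukemias and 4798 to 5674 in thymocytes. The sums were 8270, 10544, 10160, 6218, 13065, 6330, 13712 and 5586 in leukemias 1 to 8, highest in leukemias 7 and 5, which were bright for Gzmb, and then in leukemia 2, which was not. Of 18 neutrophil and mast cell genes 0 rose and 4 fell, with sums of 1063 to 1343 in leukemias and 1339 to 1522 in thymocytes, and mast cell Ms4a2 and Fcer1a near the control level. Erythroid and stromal genes (13 measured, 1 called higher, 1 lower) summed to 1906 to 7125 in leukemias and 4346 to 7835 in thymocytes. General thymocyte and T-cell genes (17 measured) had 1 up and 6 down, and sums of 14649 to 29859 in leukemias and 32623 to 33423 in thymocytes. In leukemias 1 to 8 they were 14649, 26384, 23468, 29859, 20292, 22768, 17386 and 21117. They were lowest in leukemias 1, 7 and 5, which were bright for Gzmb. Leukemia 3, also bright for Gzmb, stood above leukemias 6 and 8, which were less bright for it. The part of these cells in the levels of the 6 genes was not tested.

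**Figure D5:**
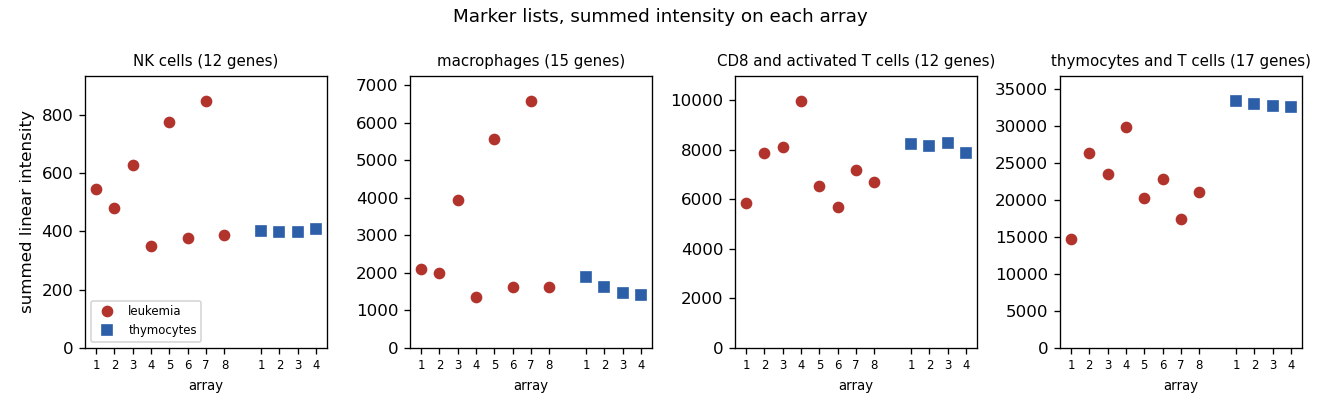
Summed linear intensity (vertical axes, from 0) of 4 marker lists on each array, leukemias 1 to 8 as circles and thymocyte arrays 1 to 4 as squares. Macrophage sums stand out in leukemias 3, 5 and 7. NK sums are highest in leukemias 7, 5, 3 and 1, with leukemia 2 (479) near leukemia 1 (547). Their brightest member is Tyrobp, which macrophages also express. Sums of the thymocyte and T-cell list are lower in all 8 leukemias than in any thymocyte array. For the CD8 and activated T-cell list 5 leukemias lie below every thymocyte array and 1, leukemia 4 (9990), above.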

How the data were processed

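The authors deposited 1 linear intensity for each probe set and array. The submitters' processing notes name RMA, which corrects background, normalizes arrays and summarises probes, and give no version. All intensities were above 0 and were converted to log2 without an offset. Of 12488 probe sets, 66 Affymetrix controls were left out of the tests. Names come from the platform annotation, updated through RefSeq (GRCm38.p6), and a gene with several probe sets is represented by the brightest over all 12 arrays.

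Groups were compared with limma 3.58.1 under R 4.3.3, two-sided and without covariates, by lmFit followed by eBayes. The fit was tested on simulated data with the same spread in both groups. There 92% of probe sets changed by 1 log2 unit were recovered, and 5.4% of calls were false. That setting does not cover genes such as Gzmb, whose spread differed between the groups. Alternatives were other scalings, array weights, a trended variance, the brighter probe sets, averaged probe sets, title-number classes and each array left out. Where 1 group mean lay under the mean control level, a fold is a lower bound ("at least"), taken against the higher of the array's control level and its value. Genes named besides the 6 follow a rule: up to 4 called genes with the largest statistic per pathway list, up to 3 of the brightest per marker list, and the 3 genes most like each of the 6 with an SD of at least 0.5. Any other gene was picked with its values in view. The 6 genes and all lists were chosen with earlier results of these data known. No replicate block was fitted, since the labels give no shared replicate numbers.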

Additional observations from a re-analysis of the deposited data

Results flagged for a closer look

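In 65 genes named or listed with the granzymes, each group was checked for an array far from the others of its group, with Dixon's criterion at a level where chance alone marks about 5% of groups. Of 130 checks 4 were marked, no more than chance alone marks at that level. Prf1 stood at 8.83 in leukemia 7, where the other leukemias were at 5.95 to 7.31. It was barely past the criterion, with a gap of 0.528 of the range against 0.526. Gzmd, granzyme D, was at 6.51 in leukemia 5 and at 4.21 to 4.87 in the other leukemias. Gzmf, granzyme F, was at 6.09 in leukemia 5 and at 3.52 to 3.84 in the others. Gzmd and Gzmf lay above the array's control level in leukemia 5 alone. The name of the Gzmd probe set has _f_ in it, which like _s_ marks possible hybridization to related transcripts. Thy1, a T-cell surface protein, was at 12.30 in thymocyte array 4 and at 12.11 to 12.14 in the other thymocyte arrays.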

How the results depend on the processing

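No paired analysis was possible because the labels give the groups no shared replicate numbers. Averaged probe sets, a trended variance, the brighter probe sets and the exact permutation test leave the difference of a gene with 1 probe set unchanged. The exact test was judged on its raw p, the others on adjusted p. Gzma and Serpinb9 kept their direction and stayed past the threshold in 21 of 22 alternatives each. The exception was the set of arrays without a title number of 4 digits (4 leukemias, 1 thymocyte array, assumed to vary like the others), with log2 differences of 2.98 (adjusted p = 0.176) and 1.59 (0.498). There 0 of the 6 genes, 3 higher and 10 lower probe sets, and 0 higher and 1 lower pathway genes were called. Array weights gave Gzmb 3.29 (adjusted p = 0.0107), 1340 higher and 2060 lower probe sets and 37 higher pathway genes, against 578, 1227 and 18 without them. Ccl5 and Prf1 passed in 0 alternatives. With single arrays left out the log2 difference was 3.53 to 3.87 for Gzma, 2.63 to 3.54 for Gzmb (adjusted p = 0.0533 to 0.235), 0.495 to 0.906 for Prf1, 1.23 to 1.55 for Serpinb9 and 1.48 to 2.32 for Ccl5. It gave 390 to 618 higher and 759 to 1426 lower probe sets, of which the lowest lower counts, 759 and 792, came without thymocyte arrays 1 and 2, and 12 to 22 higher and 11 to 13 lower pathway genes, a choice of counts made after seeing the data. Klrd1 changed sign, lying between -0.093 and 0.081 over left-out arrays, at -0.041 with array weights and -0.114 within titles of 4 digits, and was not called in any. Correlations of Gzma turned to 0.190 with Serpinb9 and 0.116 with Klrd1 without the 2 farthest arrays, and that of Klrd1 with Ccl5 was 0.838 and no longer passed. Under quantile normalization the gap in Klrd1 exceeded the limit, so its pairs have no value. The causes were not tested. Probe sets near the control level, such as Klrd1, carry no level.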

Other observations

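Genes of CD8 and activated T cells did not share 1 order of leukemias. For 6 of the 12 genes of that list the 4 brightest leukemias were 1, 3, 5 and 7, as for Gzmb, and for the other 6 they were not. The first kind includes Cd44 and Eomes, with both group means under the control level, so their order is not read. How many of all genes have the same 4 brightest leukemias was not counted, so the share has no background to be judged against. The genes given next were chosen after their values were seen. The inhibitory receptor gene Lag3, of the first kind, was at 7.79, 6.09, 7.21, 5.83, 6.74, 6.06, 8.39 and 6.08 in leukemias 1 to 8, against 6.36 to 6.49 in thymocyte arrays, and was not called (limma adjusted p = 0.642). Ctsw, a cathepsin of cytotoxic lymphocytes and also of the first kind, was at 10.19, 8.06, 9.02, 8.27, 8.85, 8.19, 9.96 and 8.45, against 7.56 to 8.07, and was not called (limma adjusted p = 0.082).

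Other genes ran differently. Pdcd1, which was called higher, was brightest in leukemias 7, 8, 1 and 6, at 8.57, 8.51, 8.27 and 7.93, against 6.89 to 7.09 in thymocyte arrays. Itgae, also called higher, was at 5.84 in leukemia 1, below leukemias 2, 4 and 8 at 6.80, 6.87 and 6.63, against 5.20 to 5.51 in thymocyte arrays. Cd8a was lowest in leukemia 1, at 10.18, and highest in leukemia 4, at 11.95, against 11.50 to 11.66 in thymocyte arrays.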
